A study of Homo sapiens with 6 samples.

Results

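The hypoxia-inducible factors (HIF) and a set of their regulators and targets were followed in PC3 cells given an siRNA against paxillin. The set holds 10 genes of the 23285 in the deposited tables, matched by exact symbol: the factor subunits *HIF1A* and *EPAS1*, the oxygen sensors *EGLN1* and *EGLN3*, and the targets *CA9*, *ADM*, *NDRG1*, *BNIP3*, *P4HA1* and *PDK1*. All 10 were found, and 9 passed the filter on low counts; *CA9* did not. PC3 is an established prostate cancer line, described by the labels as derived from a bone metastasis. The cells received non-specific siRNA or paxillin siRNA and were sampled at 72 h, with 3 libraries in each group carrying replicate numbers 1 to 3. The control cells were therefore transfected too, and no source used here gives the number or sequences of the siRNAs. The labels give no oxygen level and no hypoxia treatment.

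Oxygen controls the HIF pathway mainly through protein, not RNA. In oxygenated cells the EGLN enzymes hydroxylate prolines of the HIF alpha subunits, the von Hippel-Lindau protein binds the hydroxylated subunit, and it is degraded. When oxygen is short, the alpha subunit persists, pairs with ARNT and binds DNA at hypoxia response elements, whose core reads ACGTG or GCGTG. The transcripts below report the level of the pathway's parts and of its targets, and HIF protein was not measured in the data used here.

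Of the members, 5 passed as lower and 2 as higher by edgeR once the replicate number was taken into account. Without it, edgeR passed 0. By edgeR with group as the only term, 0 of the 9 tested members were called at an adjusted p under 0.05, where 0.302% of all 15876 genes tested were called lower and 0.882% higher (1.18% in all). At an unadjusted p under 0.05, 6 of the 9 passed, against 22.5% of all genes. DESeq2, also with group as the only term, called *NDRG1* and *BNIP3* lower. There 5.05% of all genes were called lower and 4.79% higher (9.84% in all). With the same single term limma-voom called 0. In the edgeR fit with a replicate block, which gives each replicate number its own baseline, *EGLN1*, *NDRG1*, *BNIP3*, *P4HA1* and *PDK1* fell and *EPAS1* and *ADM* rose. That is 5 of 9 lower and 2 of 9 higher, beside 10.7% and 11.7% of all genes (22.4% in all). Below, calls without the block are those of edgeR with group only, unless another fit is named. No label says whether the libraries are separate cultures, and the p-values therefore reflect the spread among 6 libraries, possibly a technical one. In such bulk RNA, fewer cells that express a gene and less of its RNA per cell cannot be told apart.

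The siRNA target stood well apart between the groups. *PXN*, which encodes the focal adhesion adaptor paxillin (chromosome 12, 120639094 to 120703574, hg19), was at 802 ± 73.3 CPM with non-specific siRNA and at 68.9 ± 19.8 with paxillin siRNA (mean ± SD, n = 3). It fell with a log2 fold change of -3.54 ± 0.23 (SE; edgeR adjusted p = 0.00613), although that p became 0.0819 on leaving out control replicate 1 and 0.0762 on leaving out control replicate 2. CPM here are counts scaled to library size with TMM factors. The libraries held 22209765 to 33627620 reads. Epithelial keratins were present, with *KRT18* at 171 to 196 CPM, and the prostate androgen targets *KLK2* and *KLK3* were at or near 0 in all 6 libraries.

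Matches to the hypoxia response element core were common in the promoters of the members. RefSeq promoter windows (GRCh38.p14) were at hand for 9 of the 10 genes, and the 250 bases before the gene start were searched for ACGTG and for GCGTG on both strands. One or both were present in 8 of those 9 genes, in any of their windows, with *EGLN3* the exception. ACGTG was found for 5 of them and GCGTG for 4. Among all 27305 genes with such windows, 47.4% held either core, 21.7% held ACGTG and 36.2% held GCGTG. A match is a description of letters, not a binding site. The stretches below are shown because they let the targets that moved be compared at the same letters. Each has 29 bases, is written 5′ to 3′ on the strand of the match, and has the core in capitals.
EGLN1: gggccgtggtgtACGTGcagagcgcgcag
CA9: tgtacgggctgtACGTGcattggaaacga
P4HA1: gcagccctcgctACGTGagctcgatcaca
PDK1, farther match: ggtacgtgagggACGTGgcgggcagcagg
PDK1, nearer match: ctgccgagtggtACGTGagggacgtggcg
BNIP3: ggtgcgtgtggcACGTGcggcgcgtgcgc
ADM: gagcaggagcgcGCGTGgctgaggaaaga
EPAS1: gggcctgccggcGCGTGcccgcccacaca
HIF1A: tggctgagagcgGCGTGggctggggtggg
In *EGLN1* (chr1:231422284-231422312, minus strand), *CA9* (chr9:35673898-35673926, minus strand) and *PDK1* (chr2:172556061-172556089 and chr2:172556070-172556098, minus strand) the first base of the match, counted along the gene, lay 13, 18, 17 and 8 bases before the start. In *P4HA1* (chr10:73096936-73096964, plus strand) it lay 86 bases before. The *BNIP3* stretch (chr10:131982041-131982069, plus strand) belongs to a cluster. Its core is part of CACGTG, which reads ACGTG on both strands, and 4 matches to GCGTG lie around it, so that 6 matches begin between 143 and 104 bases before the start. The GCGTG matches of *ADM* (chr11:10304960-10304988), *EPAS1* (chr2:46297278-46297306) and *HIF1A* (chr14:61695297-61695325), all on the plus strand, lay 101, 117 and 204 bases before the start. The members called lower with the block and matched to a window all held ACGTG, and *BNIP3* held GCGTG too. Both members called higher held only GCGTG. These are few genes, and whether the core goes with the direction was not tested. Of the other HIF targets outside glycolysis with windows, 59.5% held ACGTG and 64.9% GCGTG. Of the glycolytic HIF targets with windows, 63.2% held each core. *HIF1A*, not called, held GCGTG, and *CA9*, not tested, held ACGTG.

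Of the 2 factor subunits, *EPAS1* was called with the block and *HIF1A* was not. *HIF1A* encodes the alpha subunit that most cell types carry (chromosome 14, 62162119 to 62215807, hg19; *HIF1A-AS2* is listed at the same locus, and no source used here says whether counting used strand). The level was 540, 512 and 589 CPM in control replicates 1, 2 and 3 and 422, 415 and 591 CPM in the paxillin siRNA replicates. Replicates 1 and 2 of the paxillin siRNA group were below every control library and replicate 3 was level with the highest control, so the groups overlap. Its log2 fold change was -0.20 ± 0.18 (SE; edgeR adjusted p = 0.54), and -0.22 ± 0.15 with the replicate block (adjusted p = 0.307). *EPAS1* encodes the related alpha subunit HIF-2-alpha (chromosome 2, 46524541 to 46613842), best known from endothelium and kidney. It was at 19.7, 23.7 and 17.6 CPM in the control libraries and at 25.9, 35.0 and 24.3 CPM with paxillin siRNA. All 3 paxillin siRNA libraries exceeded all 3 controls, which held for 13.6% of all genes tested, and *EPAS1* was the only member whose groups did not overlap. It rose 1.39-fold with the replicate block (log2 fold change 0.48 ± 0.12 SE; edgeR adjusted p = 0.017; 0.18 without the block). Same-numbered libraries differed by 0.40, 0.56 and 0.47 log2 units for *EPAS1*, a narrow range, and by -0.36, -0.30 and 0.00 for *HIF1A*.

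Per length, *HIF1A* remained far the more abundant subunit. Its FPKM was 36.4, 27.0 and 44.4 times that of *EPAS1* in the control libraries and 21.3, 16.3 and 31.2 times with paxillin siRNA. The mean log2 ratio was lower by 0.67, from 5.14 ± 0.36 to 4.47 ± 0.47 (SD, n = 3), and the groups overlap (exact two-sided permutation test, p = 0.2; 0.267 adjusted over the 4 ratios tested). The smallest p that 3 libraries against 3 allow is 0.1. The third alpha subunit gene, *HIF3A*, was at or below 0.49 CPM in every library and was not tested. The genes whose centred log2 CPM lay nearest to that of *HIF1A* over the 6 libraries were *IREB2*, *ANKRD50* and *TSPAN5*, at a root mean square distance of 0.0312, 0.0314 and 0.0333. For *EPAS1* they were *ADAM19*, *DICER1* and *HIST1H2AH*, at 0.0451, 0.0615 and 0.0664.

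**Figure D1:**
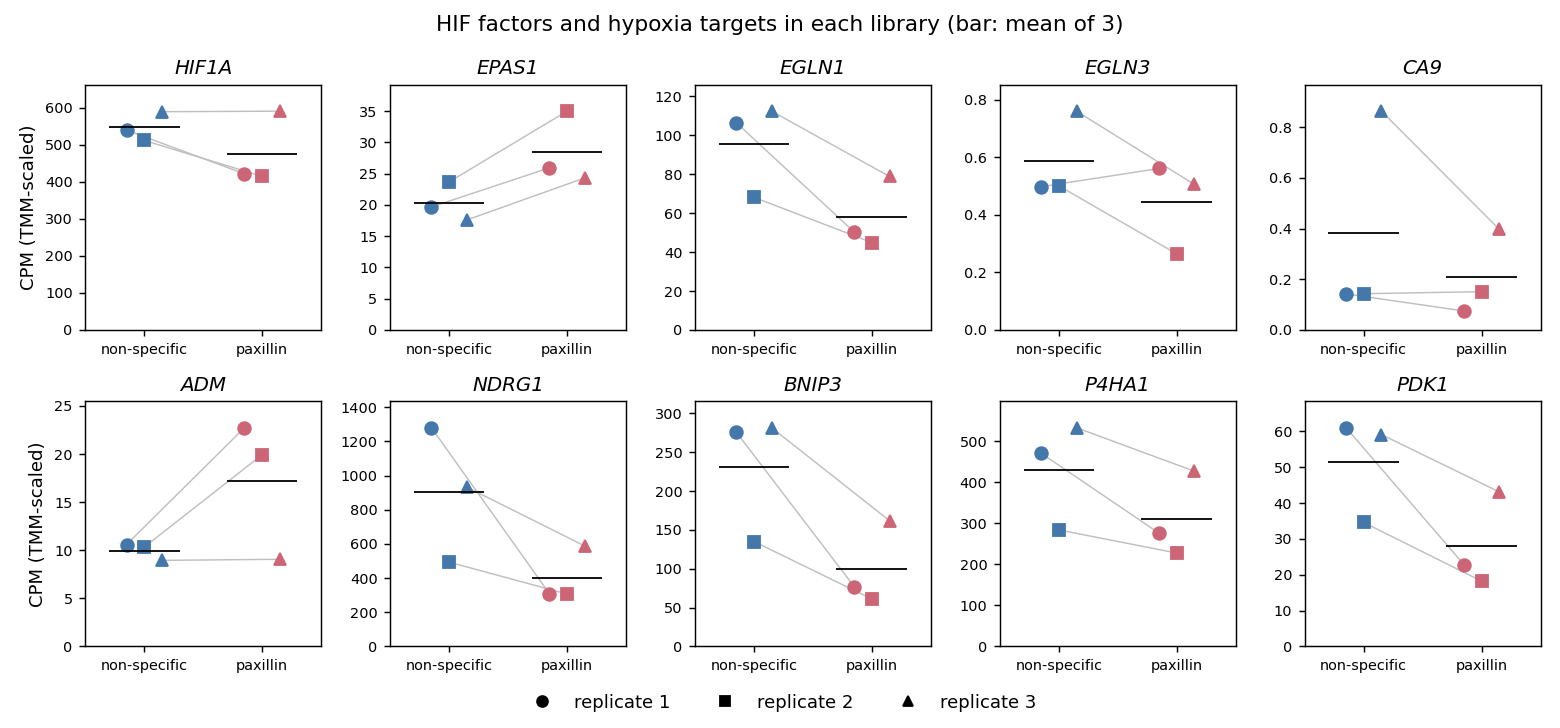
TMM-scaled CPM (vertical axes, from 0) of the 10 genes in each library, with the mean of 3 as a bar and grey lines joining libraries of the same replicate number. HIF1A, NDRG1, BNIP3, P4HA1, EGLN1 and PDK1 share one layout: control replicate 2 is the lowest control and paxillin siRNA replicate 3 the highest library of its group.

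The oxygen sensors were present at very unequal levels. *EGLN1* encodes the prolyl hydroxylase that sets HIF1A turnover in most cells and is itself induced by HIF (chromosome 1, 231499497 to 231560790). It was at 107, 68.2 and 112 CPM in the control libraries and at 50.3, 44.9 and 78.9 CPM with paxillin siRNA. The first 2 paxillin siRNA libraries were below all controls, and replicate 3 lay above control replicate 2. *EGLN1* fell 1.66-fold with the replicate block (log2 fold change -0.73 ± 0.14 SE; edgeR adjusted p = 0.00325; 0.162 without the block). *EGLN3*, a hydroxylase that responds strongly to hypoxia in many lines (chromosome 14, 34393421 to 34420284), was barely detected. Its level was 0.50, 0.50 and 0.76 CPM in controls and 0.56, 0.26 and 0.51 CPM with paxillin siRNA, which rests on 8 to 18 reads a library. With so few reads a log2 fold change of -0.40 ± 0.39 (SE; edgeR adjusted p = 0.578) was not distinguishable from 0. The FPKM of *EGLN3* was 0.0115 to 0.0268 times that of *EGLN1* across the 6 libraries, and the change in this ratio was within its spread (log2 difference 0.26; exact permutation p = 0.6). *EGLN2*, the constitutive relative, had a mean FPKM of 7.94 over all libraries, against 4.27 for *EGLN1*, and a log2 fold change of -0.06 ± 0.16 (SE; edgeR adjusted p = 0.856).

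*NDRG1* and *BNIP3* had the widest differences of the set. *NDRG1* encodes a cytoplasmic stress-responsive protein that is among the most used markers of hypoxia in prostate cells (chromosome 8, 134249414 to 134309547). It was at 1281, 494 and 933 CPM in control replicates 1, 2 and 3 and at 310, 307 and 588 CPM with paxillin siRNA. Control replicate 2 lay below paxillin siRNA replicate 3, so the groups overlap, and the controls alone spanned 1.38 log2 units. The log2 fold change was -1.17 ± 0.39 (SE; edgeR adjusted p = 0.137), and with the replicate block -1.12 ± 0.24 (adjusted p = 0.007). *BNIP3* encodes a mitochondrial outer membrane protein that promotes the removal of mitochondria by autophagy (chromosome 10, 133781204 to 133795435). It was at 276, 135 and 282 CPM in the controls and at 77.0, 61.1 and 162 CPM with paxillin siRNA. Again control replicate 2 lay below paxillin siRNA replicate 3. *BNIP3* fell 2.39-fold with the replicate block (log2 fold change -1.26 ± 0.18 SE; edgeR adjusted p = 0.000689; 0.143 without the block). It was the only member still called with the block when the replicate 1 libraries of both groups were left out, and the values of the other fits are in the closing section.

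The relative *BNIP3L*, which encodes the mitophagy receptor NIX, followed the same layout with a smaller difference. It was at 209, 122 and 211 CPM in controls and at 98.5, 86.8 and 161 CPM with paxillin siRNA, and it fell with the replicate block (log2 fold change -0.65 ± 0.15 SE; edgeR adjusted p = 0.00903; 0.235 without the block). The FPKM of *BNIP3* was 3.21, 2.77 and 3.24 times that of *BNIP3L* in controls and 1.94, 1.70 and 2.47 times with paxillin siRNA. These ratios did not overlap between the groups. The mean log2 ratio was lower by 0.61, at the smallest p the design allows (exact permutation p = 0.1; 0.2 adjusted over the 4 ratios). Among the *NDRG1* relatives, *NDRG4* was at 29.5, 19.4 and 25.1 CPM and at 13.4, 11.3 and 14.8 CPM. Its groups did not overlap, as for 14.7% of all genes in that direction, and its adjusted p was 0.065, or 0.00133 with the replicate block. *NDRG3* had a log2 fold change of -0.16 ± 0.15 (SE; edgeR adjusted p = 0.56). Over all relatives of members, 21 were listed and 16 tested. With the block 5 were lower and 2 higher, beside 10.7% and 11.7% of all genes. Without it 0 were lower and 1 higher, beside 0.302% and 0.882%.

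**Figure D2:**
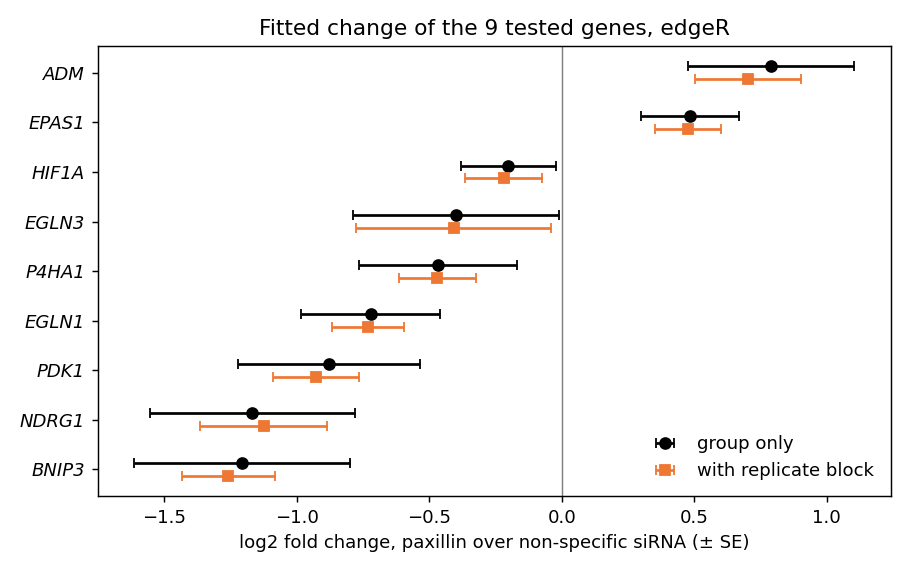
Log2 fold change of paxillin siRNA over non-specific siRNA (horizontal axis, ± SE) for the 9 tested genes, fitted by edgeR with group only (circles) and with the replicate block (squares). The estimates of both fits lie close together, and the SE of BNIP3 narrows from 0.41 to 0.18 with the block.

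The metabolic enzymes of the set were also lower with the block. *PDK1* encodes a kinase that switches off pyruvate dehydrogenase and so limits the entry of pyruvate into the mitochondrial cycle (chromosome 2, 173420779 to 173463862). It was at 61.0, 34.6 and 59.1 CPM in the controls and at 22.9, 18.2 and 43.1 CPM with paxillin siRNA. Only paxillin siRNA replicate 3 exceeded any control, namely replicate 2. *PDK1* fell 1.90-fold with the replicate block (log2 fold change -0.93 ± 0.16 SE; edgeR adjusted p = 0.00247; 0.187 without the block). *P4HA1* encodes the catalytic subunit of collagen prolyl 4-hydroxylase, which stabilises the collagen triple helix (chromosome 10, 74766980 to 74856732). It was at 471, 284 and 534 CPM in controls and at 276, 228 and 427 CPM with paxillin siRNA. Paxillin siRNA replicates 1 and 2 were below every control, and replicate 3 was above control replicate 2. It fell 1.38-fold with the replicate block (log2 fold change -0.47 ± 0.15 SE; edgeR adjusted p = 0.037; 0.388 without the block).

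The other pyruvate dehydrogenase kinases went separate ways. *PDK4*, the form known to respond to fatty acids and fasting, was at 8.57, 6.40 and 9.99 CPM in controls and at 44.9, 29.8 and 26.9 CPM with paxillin siRNA. All 3 paxillin siRNA libraries were well above the controls. It rose 4.07-fold without the block (log2 fold change 2.02 ± 0.25 SE; edgeR adjusted p = 0.0252), a call that ended without non-specific siRNA replicate 1 or 2 (adjusted p = 0.195 and 0.0931), without paxillin siRNA replicate 1 or 2 (0.092 and 0.0675) and by limma on log2(FPKM + 1), where the log2 fold change was 1.16 (0.0511). *PDK3* was at 36.8, 24.2 and 41.8 CPM and at 16.2, 12.2 and 28.0 CPM, and fell with the block (log2 fold change -0.91 ± 0.14 SE; edgeR adjusted p = 0.00131; 0.171 without the block). *PDK2* had a log2 fold change of 0.33 ± 0.13 (SE; adjusted p = 0.185). Per length, *PDK1* went from 4.01 ± 1.29 to 2.08 ± 1.01 FPKM and *PDK4* from 0.771 ± 0.203 to 2.98 ± 0.784 FPKM (SD, n = 3), so that the order of the means was reversed, though in paxillin siRNA replicate 3 *PDK1* was still above *PDK4*, while *PDK2* had the highest mean of the 4 in both groups at 5.82 and 6.63 FPKM. Of the 7 genes of the pyruvate dehydrogenase complex and its phosphatases, 0 passed without the block. With it *PDP1*, a phosphatase that opposes the kinases, and *PDHX* rose, and *PDHA1* fell (edgeR adjusted p = 0.00592, 0.049 and 0.0457), where 11.7% of all genes were higher and 10.7% lower. With the block and without replicates 1, 2 and 3 of both groups, 0, 0 and 2 genes of this list were called. *PDHB* and *DLD*, with *PDP1* the most abundant of these per length, had log2 fold changes of -0.19 and 0.05.

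The other collagen hydroxylase genes were not called in either fit. *P4HA2* had a log2 fold change of -0.13 ± 0.29 (SE; edgeR adjusted p = 0.816) and *P4HB*, the shared beta subunit and also a disulfide isomerase, one of -0.24 ± 0.23 (adjusted p = 0.571). The FPKM of *P4HA1* was 6.48, 6.04 and 5.69 times that of *P4HA2* in controls and 4.59, 4.61 and 5.02 times with paxillin siRNA, so every control ratio exceeded every paxillin siRNA ratio. The mean log2 ratio moved from 2.60 ± 0.09 to 2.24 ± 0.07 (SD, n = 3; exact permutation p = 0.1; 0.2 adjusted over the 4 ratios).

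*ADM* went the other way in 2 of the 3 pairs. It encodes adrenomedullin, a secreted peptide that widens blood vessels (chromosome 11, 10326642 to 10328923). It was at 10.6, 10.3 and 8.95 CPM in the controls and at 22.7, 19.9 and 9.06 CPM with paxillin siRNA. Replicates 1 and 2 of the paxillin siRNA group were above every control, whereas replicate 3 lay within the control range. With the replicate block *ADM* rose 1.63-fold (log2 fold change 0.70 ± 0.20 SE; edgeR adjusted p = 0.0245; 0.192 without the block). Without paxillin siRNA replicate 3, *ADM* was called without the block as well (log2 fold change 1.09, adjusted p = 0.00843). Of the genes for its receptor, *RAMP1* was at 56.5, 46.7 and 99.2 CPM and at 110, 72.8 and 99.5 CPM, and rose with the block only (log2 fold change 0.53 ± 0.16 SE; edgeR adjusted p = 0.0335; 0.359 without). That is 1 of the 2 receptor genes tested, where 11.7% of all genes were called higher. *CALCRL*, the receptor to which RAMP proteins bind, did not exceed 2.09 CPM, and *RAMP2* and *RAMP3* were at 0.19 CPM or less.

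*CA9*, which encodes the cell surface carbonic anhydrase IX and is a classical marker of hypoxic tumours (chromosome 9, 35673915 to 35681154), was almost silent. It was at 0.14, 0.14 and 0.86 CPM in the controls and at 0.07, 0.15 and 0.40 CPM with paxillin siRNA, which is 5, 4 and 18 reads and 3, 5 and 9 reads. Replicate 3 was the highest library in both groups. The count filter removed *CA9*. Without that filter its log2 fold change was -0.88 ± 0.83 (SE; edgeR adjusted p = 0.617), and a difference was not detectable at this depth. The nearest genes in centred log2 CPM, *SLC39A10*, *DMD* and *TMPRSS15*, lay at root mean square distances of 0.379, 0.38 and 0.387, far beyond the neighbours of *HIF1A*. Among related carbonic anhydrases, *CA12* was at 24.5, 26.9 and 31.4 CPM and at 16.7, 17.0 and 29.7 CPM (edgeR adjusted p = 0.377; 0.0477 with the block). *CA11*, an inactive family member, was at 3.20, 1.97 and 3.04 CPM and at 10.9, 6.87 and 5.42 CPM, with adjusted p = 0.0659, or 0.00126 with the block.

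Per length, the members fell into tiers. The means over all 6 libraries were 71.9 FPKM for *NDRG1*, 43.7 for *P4HA1*, 42.5 for *HIF1A* and 40.7 for *BNIP3*, and neighbours in this order overlapped in their range over the libraries. *EGLN1* at 4.27, *ADM* at 3.92, *PDK1* at 3.05 and *EPAS1* at 1.53 FPKM formed a lower tier, again with overlap between neighbours and none with the 4 genes above. *CA9* and *EGLN3* were lowest, at 0.0697 and 0.0684 FPKM, and cannot be ordered.

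Libraries of the same replicate number were also compared directly, although no label says that the numbers pair them. Of the 9 tested members, *EGLN1*, *NDRG1*, *BNIP3*, *P4HA1* and *PDK1* were lower in all 3 same-numbered pairs, against 28.7% of all genes, and *EPAS1* and *ADM* were higher in all 3, against 29.2%. For *ADM* the third pair differed by only 0.02 log2 units. Pair 1 had the widest difference for each of the 5 genes that fell. *NDRG1* differed by -2.05, -0.69 and -0.67 log2 units in pairs 1, 2 and 3, *BNIP3* by -1.84, -1.15 and -0.80, and *PDK1* by -1.42, -0.92 and -0.46. In CPM terms, *BNIP3* with paxillin siRNA stood at 27.9%, 45.2% and 57.5% of the same-numbered control.

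**Figure D3:**
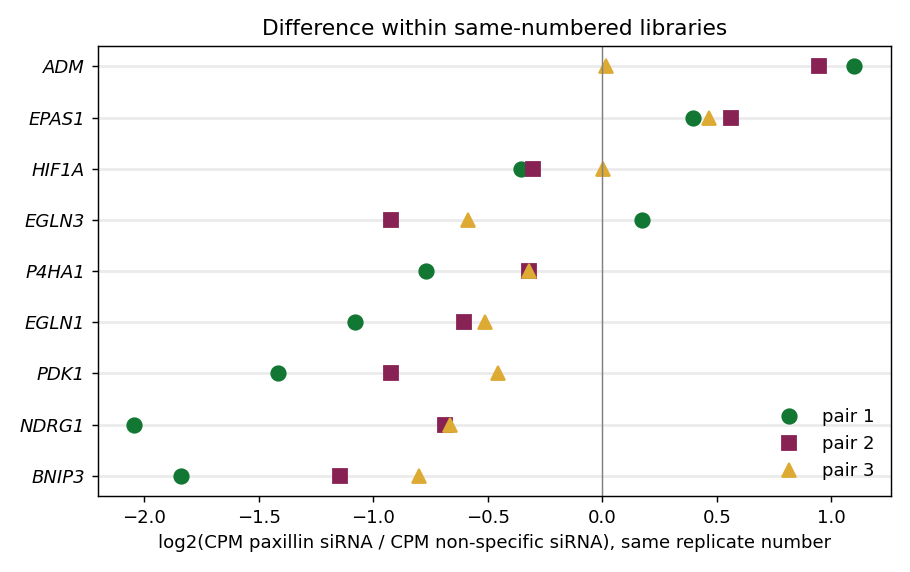
Log2 ratio of paxillin siRNA to non-specific siRNA CPM (horizontal axis) between libraries of the same replicate number, one symbol per pair, for the 9 tested genes. For the 5 genes that fell with the block all 3 pairs lie below 0, with pair 1 farthest out; HIF1A and ADM have a pair at 0.

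For *EGLN1*, *NDRG1*, *BNIP3*, *P4HA1* and *PDK1* the groups overlapped because paxillin siRNA replicate 3 lay above control replicate 2. *HIF1A* had the same lowest control and the same highest paxillin siRNA library, and there paxillin siRNA replicate 3 lay above every control. *EGLN3* and *ADM* overlapped in other ways. Non-specific siRNA replicate 2 was the lowest control for 6 of the 9 tested members, against 35.2% of all genes. Paxillin siRNA replicate 3 was the highest of its group for 6 of the 9, against 44.1% of all genes. The median centred log2 CPM of the members was 0.42, -0.07 and 0.60 in the 3 controls and -0.35, -0.69 and 0.12 with paxillin siRNA. Proliferation markers did not have this layout among the controls. Their summed level, over 10 genes with *MKI67* and *TOP2A* among them, was 1028, 1593 and 1152 CPM in controls, highest in replicate 2, and 379, 457 and 899 CPM with paxillin siRNA. Of 10 interferon-induced genes the sum was 482 to 794 CPM in controls and 1849 to 4285 CPM with paxillin siRNA, lowest there in replicate 3. Markers of other cell types were low apart from single genes. The 6 leukocyte markers summed to 35.2 to 50.3 CPM in controls and to 55.8 to 88.7 CPM with paxillin siRNA, nearly all of it *CD68*, with *PTPRC* at 0.11 CPM or less. The 6 endothelial markers summed to 100 to 142 and 159 to 182 CPM, mostly *KDR*, with *CDH5* at 0.11 CPM or less, and the 6 fibroblast markers to 29.2 to 61.3 and 18.3 to 37.2 CPM, mostly *PDGFRA* and *COL3A1*, with *DCN* at 0.11 CPM or less. The part of proliferation, interferon and marker genes in the values of the hypoxia genes was not tested.

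**Figure D4:**
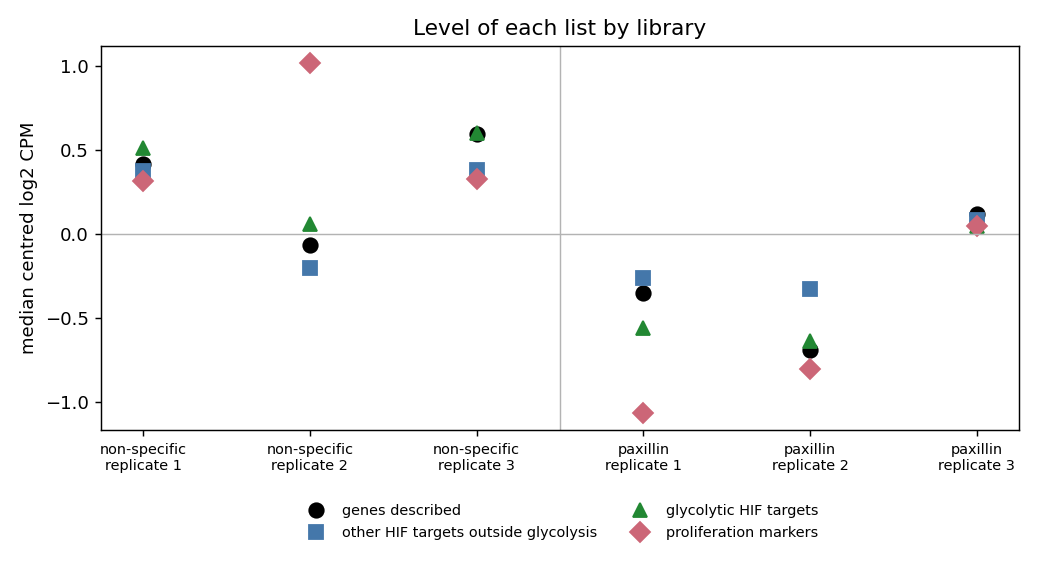
Median centred log2 CPM (vertical axis) of 4 gene lists in each library (horizontal axis). Among controls the hypoxia lists are lowest in replicate 2, at -0.20 to 0.06. They are highest of the paxillin siRNA group in replicate 3, at 0.05 to 0.12. The proliferation markers peak in control replicate 2 at 1.02.

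Other HIF targets outside glycolysis were mostly on the lower side, with 35 of the tested genes at a negative log2 fold change. Of 45 listed, 42 were tested, and 1 was called lower and 0 higher without the block, beside 0.302% and 0.882% of all genes. With it 17 were lower and 2 higher, beside 10.7% and 11.7% of all genes. With the block and without replicates 1, 2 and 3 of both groups, 5, 18 and 19 were called. Of all genes, 455, 1336 and 4885 were called in those fits. Their median log2 fold change was -0.32, against 0.00 for all genes tested. The 3 most abundant genes of the list, *TFRC*, *BHLHE40* and *PLOD1*, had log2 fold changes of -0.19, -0.30 and -0.28 and were not called in either fit. *VEGFA*, the angiogenic factor and a textbook HIF target, was at 152, 116 and 96.5 CPM in controls and at 150, 166 and 88.1 CPM with paxillin siRNA (edgeR adjusted p = 0.774; 0.578 with the block). Among genes picked after their values were seen, *AK4*, a mitochondrial adenylate kinase, was at 298, 152 and 353 CPM with non-specific siRNA, and with paxillin siRNA at 73.3, 60.1 and 185 CPM (edgeR adjusted p = 0.154; 0.000377 with the block). The collagen crosslinker *LOX* was at 25.7, 7.12 and 38.0 CPM, and with paxillin siRNA at 9.13, 4.49 and 16.9 CPM (edgeR adjusted p = 0.29; 0.000964 with the block). In both genes replicate 2 was lowest in each group, as it was for *BNIP3* and *P4HA1*. The 2 genes called higher with the block were *EDN1* and *EFNA1*. *EDN1* was at 1.35, 2.58 and 1.38 CPM in controls and at 5.27, 5.10 and 2.96 CPM with paxillin siRNA (edgeR adjusted p = 0.0934; 0.00293 with the block). *EFNA1* was at 35.9, 27.0 and 40.7 CPM and at 59.9, 44.8 and 42.5 CPM (0.182; 0.026). Neither overlapped between the groups, as for 13.6% of all genes in that direction.

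Glycolytic HIF targets lay lower throughout. All 20 had a negative log2 fold change, with a median of -0.72, and 0 were called without the block, where 16 had an unadjusted p under 0.05 (22.5% of all genes). With the block 18 were lower and 0 higher (10.7% and 11.7% of all genes), and DESeq2 called 13 lower (5.05%). With the block and without replicates 1, 2 and 3 of both groups, 2, 12 and 18 were called, where 455, 1336 and 4885 of all genes were. The most abundant were *GAPDH*, *ENO1* and *LDHA*, at log2 fold changes of -0.83, -0.92 and -0.98 (edgeR adjusted p = 0.0919, 0.103 and 0.137; 0.00627, 0.00428 and 0.00278 with the block). Control replicate 2 was the lowest control and paxillin siRNA replicate 3 the highest of its group for all 20, against 35.2% and 44.1% of all genes. The groups did not overlap, paxillin siRNA being lower, for 11 of the 20, against 14.7% of all genes and 0 of the 9 tested members.

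The rest of the oxygen-sensing machinery showed little difference. Of 20 listed genes 19 were tested, with 0 called without the block, where 2 had an unadjusted p under 0.05 (22.5% of all genes), and a median log2 fold change of 0.05. With the block 1 was lower and 0 higher, a smaller share than the 10.7% and 11.7% of all genes. Without replicates 1, 2 and 3 of both groups, 0, 0 and 5 were called. The gene called lower with the block in all 6 libraries, *HIF1AN*, encodes the asparagine hydroxylase that limits HIF activity. It was at 53.3, 47.2 and 58.7 CPM in controls and at 37.4, 37.0 and 46.4 CPM with paxillin siRNA (edgeR adjusted p = 0.161; 0.0269 with the block). Its groups did not overlap, as for 14.7% of all genes in that direction. *ARNT*, the partner of both alpha subunits, was at 43.8, 33.7 and 41.4 CPM in controls, and paxillin siRNA libraries had 47.4, 48.5 and 44.5 CPM (edgeR adjusted p = 0.331). *VHL*, the recognition subunit of the ligase that marks HIF for degradation, was at 124, 114 and 101 CPM in controls, and paxillin siRNA libraries had 162, 151 and 113 CPM (edgeR adjusted p = 0.29; 0.0784 with the block). The ligase adaptors *TCEB1* and *TCEB2* and the EGLN-binding *OS9*, the most abundant genes of the list, had log2 fold changes of -0.16, 0.00 and 0.16.

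**Figure D5:**
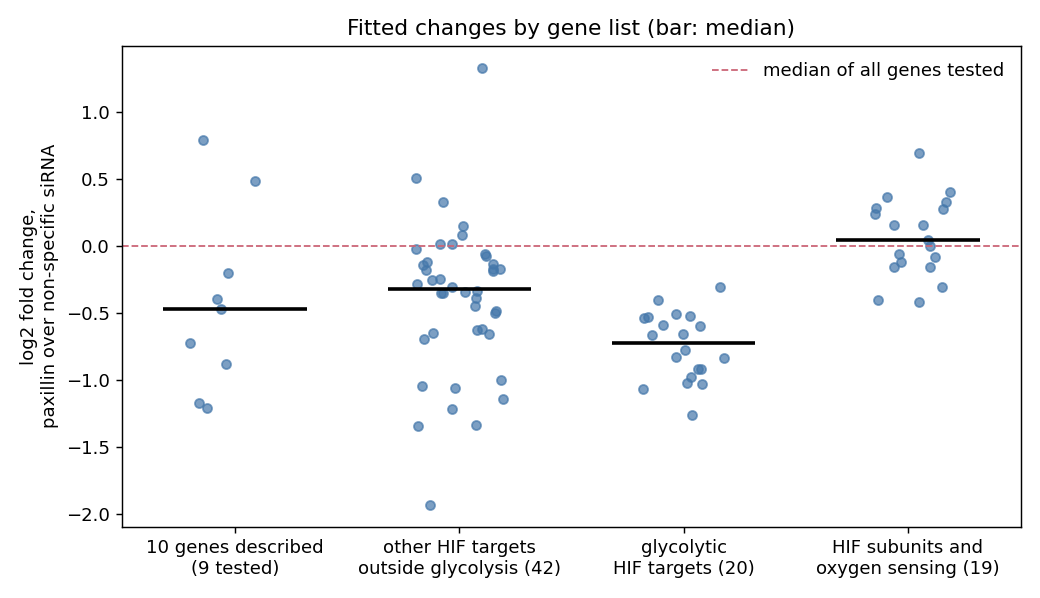
Log2 fold change by edgeR without the block (vertical axis) for each tested gene of 4 lists, with list medians as bars and the median of all genes tested as a dashed line. Medians are -0.47 for the genes described, -0.32 and -0.72 for the 2 target lists and 0.05 for the oxygen-sensing machinery.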

How the data were processed

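Per the file headers, the deposited values are estimated counts by gene in one table and FPKM in another. Cufflinks 2.0.2, FastQC 0.10.1 and the build hg19 stand in the submitters' processing notes; no source used here gives the aligner, annotation or use of strand. RNA came from an RNeasy kit and libraries from a TruSeq mRNA kit, per the labels. Each library's estimated counts are multiples of one step (0.825 to 1.37 per read; 91.2% to 91.7% of values above 0 within 0.05 of a whole multiple), and totals divided by it gave the reads. A count of 0 allows up to 3 reads, 0.0892 to 0.135 CPM, counting error only. Locus starts were raised by 1.

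Estimated counts were rounded and fitted in edgeR 4.0.16 under R 4.3.3 (TMM factors, filterByExpr, quasi-likelihood, two-sided, Benjamini-Hochberg over 15876 genes, threshold 0.05). On simulated data for this comparison, the fit without the block recovered 74% of genes changed 2-fold and 100% changed 4-fold over 15720 genes, with 6.95% of its calls false. The block fit recovered 97% and 100% over 15735 genes, with 7.08% false. The simulated counts used the spread typical of each expression level, not that of each gene. In each simulation 200 genes with an average log2 CPM above 2 were changed. Recovery of genes with a wider spread of their own was not simulated. The labels do not say whether the replicate numbers in the titles pair the libraries. Deviations from group means correlated between same-numbered libraries (r = 0.34, 0.43 and 0.56 for numbers 1, 2 and 3). Between differently numbered libraries r was -0.48 to 0.11. Values with the replicate block are given for this reason. Deviations within a group of 3 depend on each other and come from the same 6 libraries as the calls, so the check cannot establish the pairing. Alternatives used DESeq2 1.42.0 and limma 3.58.1. Levels of different genes were compared in FPKM only. The members, lists and tests were chosen with earlier results of these data known. Named genes are all members, called genes and the 3 of highest mean FPKM in each pathway list, relatives of members, and genes stated as picked later. The 3 genes nearest to *HIF1A*, *EPAS1* and *CA9* were sought among 12415 genes with an average log2 CPM of at least 2. Of 21 listed relatives, 20 were in the table. Values of some named genes are not reported here.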

Additional observations from a re-analysis of the deposited data

How the results depend on the processing

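All 9 tested members kept their sign under every alternative that gave them a value. The number of members called, 0 by edgeR without the replicate block, was 7 with the replicate block. It was 2 by DESeq2, also without the block. When a single library was left out it was 0 to 5, the 5 without paxillin siRNA replicate 3. With the block it was 1, 4 and 7 without replicates 1, 2 and 3 of both groups, alternatives chosen after seeing the data, which also leave fewer libraries. The adjusted p of *BNIP3* ranged from 3.02e-07 to 0.431 over its alternatives. All genes called, 188, became 3561 with the replicate block, 1559 by DESeq2, 303 with no low-count filter, 33 and 63 by limma on log2(FPKM + 1) and log2(FPKM + 0.1), 0 by limma on FPKM with no filter, 0 to 2440 without single libraries, and 455, 1336 and 4885 with the block and without replicates 1, 2 and 3. Pathway genes called, 2 of 111, became 47 with the block, 23 by DESeq2, 1 by limma on log2(FPKM + 1) and 0 with no FPKM filter, 0 to 29 without single libraries, and 9, 35 and 50 with the block and without replicates 1, 2 and 3. *PXN* missed the threshold by limma on FPKM with no filter (log2 fold change -3.46, adjusted p = 0.0634); without single libraries its log2 fold change was -3.81 to -3.41. Without single libraries the log2 ratio of *EGLN3* to *EGLN1* between the groups differed by -0.041 to 0.45, and reversed to -0.041 without paxillin siRNA replicate 1. The other 3 ratios kept their sign. The cause of these differences was not tested. *CA9* and *EGLN3* are limited by their few reads.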
